A study of Mus musculus with 9 samples.

Results

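Immediate early transcription factors are genes that a cell switches on within minutes of a stimulus, without first making new protein. The 10 described here were taken by symbol from a table of 17314 genes: Fos, Fosb, Jun, Junb, Egr1, Egr2, Egr3, Atf3, Myc and Ier2. All 10 are listed in the table, and 9 of them passed the filter on low counts, under which 13044 genes were tested. Fosb did not pass. RNA sequencing was done on gastrocnemius, the large calf muscle, of mice aged 6, 15 and 21 months, titled youth, mid and old, with 3 mice and 3 libraries per age. No mouse carries a stated allele or treatment, and strain and sex are not given in the labels. The series title links thyroid hormone receptor alpha with muscle aging, and the design compares the 3 ages.

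FOS and JUN proteins pair through leucine zippers to form the transcription factor AP-1, and ATF3 belongs to the same zipper family. EGR proteins bind GC-rich sites through zinc fingers, MYC pairs with MAX at E-boxes, and IER2 is a small nuclear protein of the same early wave. Serum response factor with its ternary complex partners, and CREB, are the classic activators of these genes, reached through MAP kinases and calcium. In muscle the early genes respond to contraction, stretch, injury and tissue handling, and their transcripts are short-lived. Whole muscle mixes fibres with vessel, nerve, connective and immune cells, so fewer cells of a type and less RNA per cell cannot be told apart in these values.

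Total counts ran from 15354396 to 17317856 per library, and levels are given as CPM, counts scaled to a common library size with TMM factors. Skeletal muscle markers summed to between 139500 and 201100 CPM in every library, with 0 of 12 markers at 0, as the tissue label states. On the first principal component, which held 35.2% of the variance, mouse 2 at 6 months lay at -48.0, mouse 1 at 15 months at 27.6 and mouse 3 at 21 months at 26.7, while the other 6 lay between -9.76 and 12.1. These 3 libraries also hold the lowest and the 2 highest summed levels of 11 slow fibre markers, 110.6, 1312 and 1189 CPM, against 245.8 to 695.7 CPM in the others. Results are therefore also given without them.

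Promoter windows were read for 6 of the 10 genes from a RefSeq table of the build GRCm38.p6. They are those of Fos, Fosb, Jun, Junb, Egr2 and Atf3. The 250 bases before the start of transcription are shown for 4 of them. Fos and Atf3 are shown because their levels had the largest Pearson correlation across the mice, which did not pass adjustment over the 36 pairs. By Spearman's rho Junb and Egr1 were closer, at 0.87 against 0.80. Junb and Jun are shown because they are close relatives with different patterns. The windows are chr12:85473640-85473889 on the plus strand for Fos, chr1:191183334-191183583 on the minus strand for Atf3, chr8:84978749-84978998 on the minus strand for Junb and chr4:95052223-95052472 on the minus strand for Jun. They are written from 5′ to 3′ along the gene, and capitals mark the motifs found.
Fos: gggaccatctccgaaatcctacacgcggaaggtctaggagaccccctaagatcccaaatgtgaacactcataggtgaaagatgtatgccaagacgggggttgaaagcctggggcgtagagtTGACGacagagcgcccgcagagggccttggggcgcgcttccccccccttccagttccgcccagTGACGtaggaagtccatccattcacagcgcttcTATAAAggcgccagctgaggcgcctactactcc
Atf3: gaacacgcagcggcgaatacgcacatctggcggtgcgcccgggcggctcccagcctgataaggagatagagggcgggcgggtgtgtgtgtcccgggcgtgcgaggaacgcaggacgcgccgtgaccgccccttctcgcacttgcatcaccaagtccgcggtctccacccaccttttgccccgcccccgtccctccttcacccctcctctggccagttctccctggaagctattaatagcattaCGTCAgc
Junb: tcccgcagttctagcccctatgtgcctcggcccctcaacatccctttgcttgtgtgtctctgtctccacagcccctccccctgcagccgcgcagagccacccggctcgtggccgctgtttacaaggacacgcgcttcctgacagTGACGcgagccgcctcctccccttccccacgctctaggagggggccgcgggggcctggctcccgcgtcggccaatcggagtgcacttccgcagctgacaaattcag
Jun: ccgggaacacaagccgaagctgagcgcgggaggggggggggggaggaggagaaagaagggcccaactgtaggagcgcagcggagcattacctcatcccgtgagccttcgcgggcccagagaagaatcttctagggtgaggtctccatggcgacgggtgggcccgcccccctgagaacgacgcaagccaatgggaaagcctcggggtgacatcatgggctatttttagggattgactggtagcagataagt
Motifs were searched on both strands by their exact letters: the CArG box bound by serum response factor, the full CRE (TGACGTCA) and its core (TGACG) bound by CREB and ATF proteins, the AP-1 site (TGANTCA), the EGR site (GCGNGGGCG), the TATA box (TATAAA) and the E-box (CACGTG). A full CRE also counts as a core. Fos held 2 cores, 129 to 125 and 66 to 62 bases before the start, and a TATA box 33 to 28 bases before it. Junb held 1 core, 106 to 102 bases before the start, and Atf3 held 1 core on the opposite strand, 7 to 3 bases before the start. Jun held none of the 7 motifs in this window. A core occurred in 17.9% of 27025 mouse promoters of the same length, a TATA box in 13.0% and a CArG box in 1.4%. None of the 6 windows held a CArG box, which says only that these letters are absent from these bases. The promoters of Egr1, Egr3, Myc and Ier2 were not searched.

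Levels differed widely between the genes. Per kilobase of exon, on the CPM scale and as means of the 9 libraries, Jun stood at 35.6, Atf3 at 7.04, Junb at 4.28, Ier2 at 3.68, Fos at 2.89, Egr1 at 2.71, Myc at 2.38, Egr2 at 0.615, Egr3 at 0.183 and Fosb at 0.0453. Jun alone made up between 43.0% and 82.6% of the summed CPM of the 10 genes. The share was lowest in mouse 3 at 21 months and highest in mouse 2 at 6 months. From Atf3 to Myc the order rests on little, since at 6 months Atf3 stood at 2.76 ± 2.82 and Myc at 1.69 ± 0.145 CPM per kilobase (SD, n = 3).

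**Figure D1:**
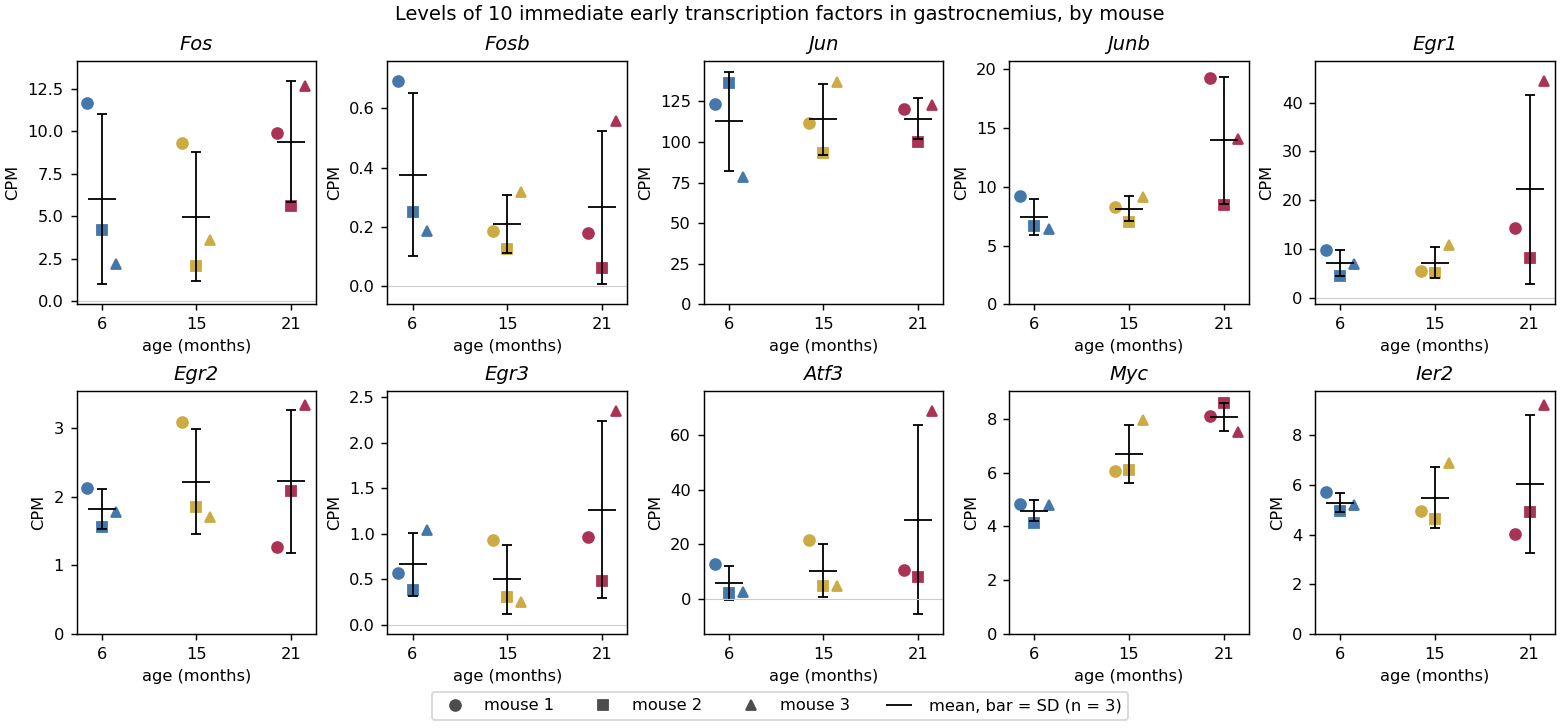
CPM of each of the 10 genes (vertical axes, linear and different for each gene) at 6, 15 and 21 months (horizontal axes), with 1 point per mouse, the mean as a dash and the SD as a bar (n = 3). Myc is the gene whose 6-month and 21-month mice do not overlap, and mouse 3 at 21 months is the highest point for Fos, Egr1, Egr2, Egr3, Atf3 and Ier2.

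Myc, which encodes a growth-promoting factor with a helix-loop-helix and zipper (Entrez ID 17869, chromosome 15, 61985341 to 61990361), was the most even of the 9 genes within an age. It stood at 4.84, 4.13 and 4.78 CPM in the mice of 6 months, at 6.07, 6.10 and 7.96 CPM at 15 months and at 8.11, 8.59 and 7.53 CPM at 21 months. All 3 mice of 15 months and all 3 of 21 months lay above all 3 of 6 months, while the older groups overlapped, with the highest mouse of 15 months above the lowest of 21 months. The group means were 4.58 ± 0.394, 6.71 ± 1.08 and 8.08 ± 0.529 CPM (SD, n = 3). Myc had a log2 fold change of 0.82 (SE 0.15, 95% confidence interval 0.47 to 1.16) in the oldest against the youngest mice, 0.55 (SE 0.16) in the middle group against the youngest, and 0.27 (SE 0.15) in the oldest against the middle group. In that order the adjusted p-values were 0.0796, 0.315 and 0.9999 in edgeR's quasi-likelihood test over all 13044 genes, and 0.184 for the F-test over the 3 ages. Myc ranked 54 of 13044 genes by p-value at 21 against 6 months. DESeq2 called it there (adjusted p = 0.00792, log2 fold change 0.82) and over the 3 ages (adjusted p = 0.0229), and limma voom with quality weights did not (adjusted p = 0.0604). Over all alternatives the edgeR, DESeq2 and voom adjusted p for 21 against 6 months ran from 0.00792 to 0.298 and the log2 fold change from 0.74 to 0.90.

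Mouse-to-mouse spread differed between the genes, and was smallest for Myc. The SD of log2(CPM + 1) within an age was 0.137 for Myc, below the median of 0.170 over all tested genes and at the 18.9th percentile of the 1752 genes within 1.5-fold of its level. The same SD was 1.32 for Atf3, 0.833 for Fos and 0.800 for Egr1, which lay at the 99.8th, 99.3rd and 99.2nd percentiles of genes at their own level. Egr3, Junb, Ier2, Egr2 and Jun lay between the 81.7th and 95.6th percentiles of genes at their own level. Differences between the ages held 87.2% of the variation of Myc across the 9 libraries, 56.5% for Junb and 44.7% for Egr1. The share was 32.4% for Atf3, 29.1% for Egr3, 25.4% for Fos, 6.6% for Egr2, 1.9% for Ier2 and 0.784% for Jun. Means of 3 mice differ even where age has no effect, so part of each share can arise that way. The share over all tested genes was not computed.

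The AP-1 genes did not share one pattern. Fos, the founding member of the FOS family (Entrez ID 14281, chromosome 12, 85473890 to 85477274), measured 11.7, 4.19 and 2.21 CPM in the youngest mice, 9.30, 2.10 and 3.60 CPM in those of 15 months and 9.92, 5.61 and 12.7 CPM at 21 months. Each age held at least 1 mouse above 9 CPM, and the groups overlapped in every comparison. The log2 fold change at 21 against 6 months was 0.64 (SE 0.61, edgeR adjusted p = 0.750), and at 15 against 6 months -0.27 (SE 0.63). The latter turned to 0.64 without mouse 1 at 6 months and to 0.10 without mouse 2 at 15 months. Without the 3 outlying libraries it was -1.28. At 21 against 6 months Fos stood at 1.55 without mouse 1 at 6 months and at 0.16 without the 3 outlying libraries. Fosb, its close relative, had between 1 and 11 counts per library and at most 0.691 CPM, in mouse 1 at 6 months, and was not tested.

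Jun, the main partner of FOS (Entrez ID 16476, chromosome 4, 95049036 to 95052222), was the most abundant member and differed little between ages. Its level was 124, 136 and 78.1 CPM at 6 months, 112, 93.1 and 137 CPM at 15 months and 120, 99.8 and 123 CPM at 21 months. The means of 112.7 ± 30.6, 113.9 ± 22.0 and 114.3 ± 12.6 CPM (SD, n = 3) lay far within the spread between mice. The log2 fold change at 21 against 6 months was 0.02, with a 95% confidence interval from -0.44 to 0.48 that also covers differences of those sizes. The fold change was negative without mouse 3 at 6 months, at -0.18, and in 3 other alternatives. The exons of Jun share 232 bases with the antisense gene Junos, which is not among the 17314 genes. How reads of that stretch were assigned is not known.

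Junb, a JUN relative that can act against it (Entrez ID 16477, chromosome 8, 84976909 to 84978748), measured 9.18, 6.70 and 6.44 CPM in the youngest mice, 8.31, 7.03 and 9.10 CPM in the middle group and 19.3, 8.47 and 14.1 CPM at 21 months. Mice 1 and 3 of 21 months lay above every younger mouse, and mouse 2 of 21 months lay inside the younger range. Against the youngest mice the oldest had a log2 fold change of 0.91 (SE 0.27), and against the middle group one of 0.78 (SE 0.27), with unadjusted p of 0.00676 and 0.0152 and edgeR adjusted p of 0.248 and 0.9999. DESeq2 gave an adjusted p of 0.0677 at 21 against 6 months. That log2 fold change was 0.60 when mouse 1 at 21 months was left out, and without the 3 outlying libraries it was 0.83. The exons of Junb share 173 bases with those of Prdx2, a peroxiredoxin gene on the opposite strand, and no source used here states whether the counting used strand. Prdx2 is the more abundant of the pair, at 89.2 ± 6.52, 103.9 ± 13.9 and 100.2 ± 15.8 CPM (SD, n = 3) at the 3 ages. How reads of the shared stretch were assigned is not known, and their part in the Junb values was not tested. The deposited Junb counts were whole numbers in all 9 libraries.

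Atf3, a zipper factor induced by cell stress (Entrez ID 11910, chromosome 1, 191170296 to 191183333), had the widest range of all 9 genes, 32.3-fold from the lowest to the highest library. It stood at 13.0, 2.13 and 2.76 CPM at 6 months, at 21.6, 4.93 and 4.86 CPM at 15 months and at 10.5, 7.99 and 68.7 CPM at 21 months. At each age 1 mouse stood far above the others: mouse 1 at 6 months, mouse 1 at 15 months and mouse 3 at 21 months. The log2 fold change at 21 against 6 months was 2.29 (SE 0.97, unadjusted p = 0.0389, edgeR adjusted p = 0.433). It was 0.64 without mouse 3 at 21 months, 3.56 without mouse 1 at 6 months and 0.24 without the 3 outlying libraries. At 15 against 6 months it was 0.82 (SE 0.98), and -0.28 without mouse 1 at 15 months.

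Of the EGR genes, Egr1, a zinc finger factor of the early response (Entrez ID 13653, chromosome 18, 34861207 to 34864956), measured 9.87, 4.51 and 6.87 CPM in the youngest mice, 5.52, 5.12 and 10.8 CPM in the middle group and 14.3, 8.05 and 44.3 CPM at 21 months. Mouse 3 at 21 months held more than 3 times the level of the next mouse, mouse 1 of the same age, and mouse 2 of that age lay within the younger range. Against the youngest mice the oldest had a log2 fold change of 1.65 (SE 0.57), and against the middle group 1.64 (SE 0.57), with unadjusted p of 0.0155 and 0.0161 and edgeR adjusted p of 0.343 and 0.9999. These log2 fold changes were 0.66 and 0.65 when mouse 3 at 21 months was left out, and without the 3 outlying libraries 0.42 and 0.49. At 15 against 6 months Egr1 stood at 0.01 (SE 0.59), with a sign that changed among the alternatives.

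Egr3, which is needed for muscle spindles during development (Entrez ID 13655, chromosome 14), was low, at 0.566, 0.376 and 1.04 CPM at 6 months, 0.930, 0.308 and 0.253 CPM at 15 months and 0.962, 0.477 and 2.35 CPM at 21 months. These values rest on 4 to 38 counts per library. Its log2 fold change of 0.92 (SE 0.64) at 21 against 6 months became 0.12 without mouse 3 at 21 months and -0.16 without the 3 outlying libraries. Egr2, known for its part in myelinating Schwann cells (Entrez ID 13654, chromosome 10), stood at 1.83 ± 0.289, 2.22 ± 0.767 and 2.23 ± 1.04 CPM at the 3 ages (SD, n = 3). Its highest levels were 3.34 CPM in mouse 3 at 21 months and 3.10 CPM in mouse 1 at 15 months, and its lowest, 1.26 CPM, belonged to mouse 1 at 21 months. The log2 fold change of 0.28 (SE 0.37) at 21 against 6 months turned to -0.12 without mouse 3 at 21 months. Schwann cell markers, 8 in all with 0 at 0, summed to 190.3 CPM in mouse 1 at 15 months and to 77.3 to 127.2 CPM in the other libraries, 103.3 CPM in mouse 3 at 21 months among them. Their part in the Egr2 levels was not tested.

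Ier2 (Entrez ID 15936, chromosome 8, 84661331 to 84662852) averaged 5.29 ± 0.393 CPM in the youngest mice, 5.49 ± 1.22 CPM in the middle group and 6.04 ± 2.77 CPM in the oldest (SD, n = 3). Mouse 3 at 21 months was the highest library, at 9.20 CPM, and mouse 1 of the same age was the lowest, at 4.03 CPM. The log2 fold change of 0.19 (SE 0.29) at 21 against 6 months turned to -0.25 without mouse 3 at 21 months. The spread of Ier2 within the oldest group thus covered the whole range of the younger mice.

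**Figure D2:**
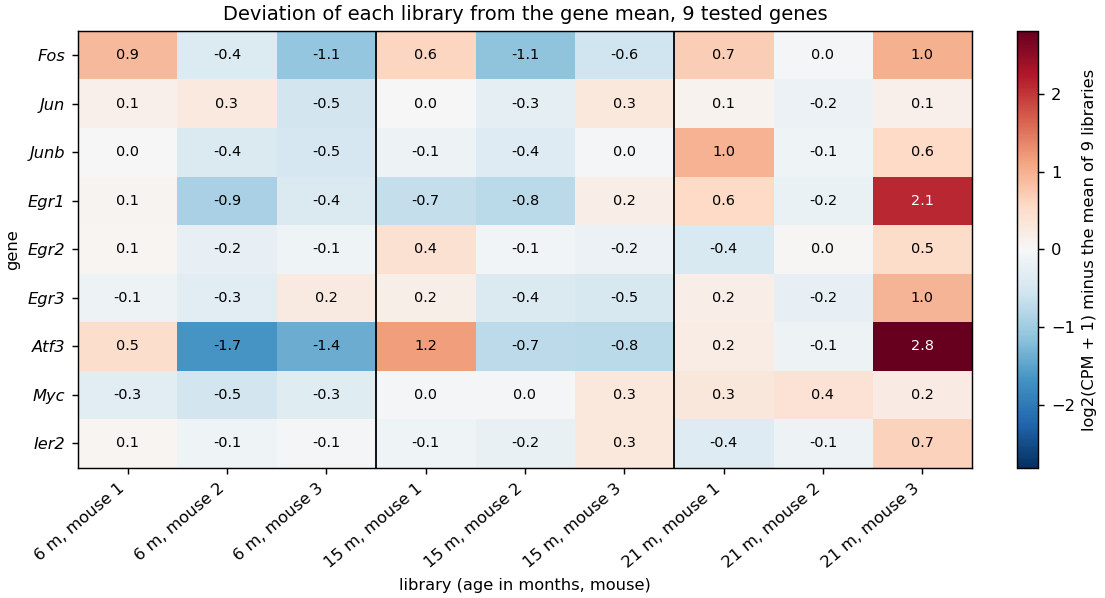
Difference of log2(CPM + 1) in each library (columns, ages separated by lines) from the mean of the 9 libraries, for each of the 9 tested genes (rows); red is higher and blue lower. Mouse 3 at 21 months is above the mean for all 9 genes, with Atf3 and Egr1 furthest out, and mouse 2 at 15 months is below it for all 9.

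One library of the oldest group stood out for most of these genes. For 6 of the 9 tested genes the highest library was mouse 3 at 21 months (Fos, Egr1, Egr2, Egr3, Atf3 and Ier2), and this mouse lay above the mean of the libraries for 9 of 9, with a median deviation of 0.66 on the log2(CPM + 1) scale. Mouse 1 at 6 months was among the 3 highest libraries for 6 of 9 genes, and mouse 1 at 21 months for 5 of 9. Mouse 2 at 15 months was below the mean for 9 of 9. Mouse 3 at 21 months is also 1 of the 3 outlying libraries, with 1189 CPM of slow fibre markers. Mouse 1 at 15 months, with 1312 CPM of the same 11 markers, had the second highest Atf3 and Egr2 but an Egr1 of 5.52 CPM, below its mean. Endothelial markers (10 genes, 0 at 0) summed to 708.3 CPM in mouse 3 at 21 months and to 602.1 and 670.6 CPM in its group, within the range of 534.1 to 767.8 CPM over all libraries. Macrophage markers (10 genes, 0 at 0) summed to 195.6 CPM in that mouse against 167.4 and 119.6 CPM in its group, and to 181.0 to 280.0 CPM at 6 months. Neutrophil markers (6 genes, between 0 and 3 of them at 0) summed to at most 3.91 CPM, in mouse 1 at 15 months. Erythrocyte markers summed to 827.9 CPM in mouse 3 at 21 months against 354.9 and 457.4 CPM in its group, and to 856.3 CPM in mouse 2 at 6 months. Adipocyte markers summed to 366.9 CPM in it against 277.3 and 285.3 CPM, and fast fibre markers to 124400 against 142700 and 151600 CPM. Mouse 1 at 15 months held 401.3 and 111500 CPM of these 2 lists. The part of fibre type or of these cells in the early gene levels was not tested.

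**Figure D3:**
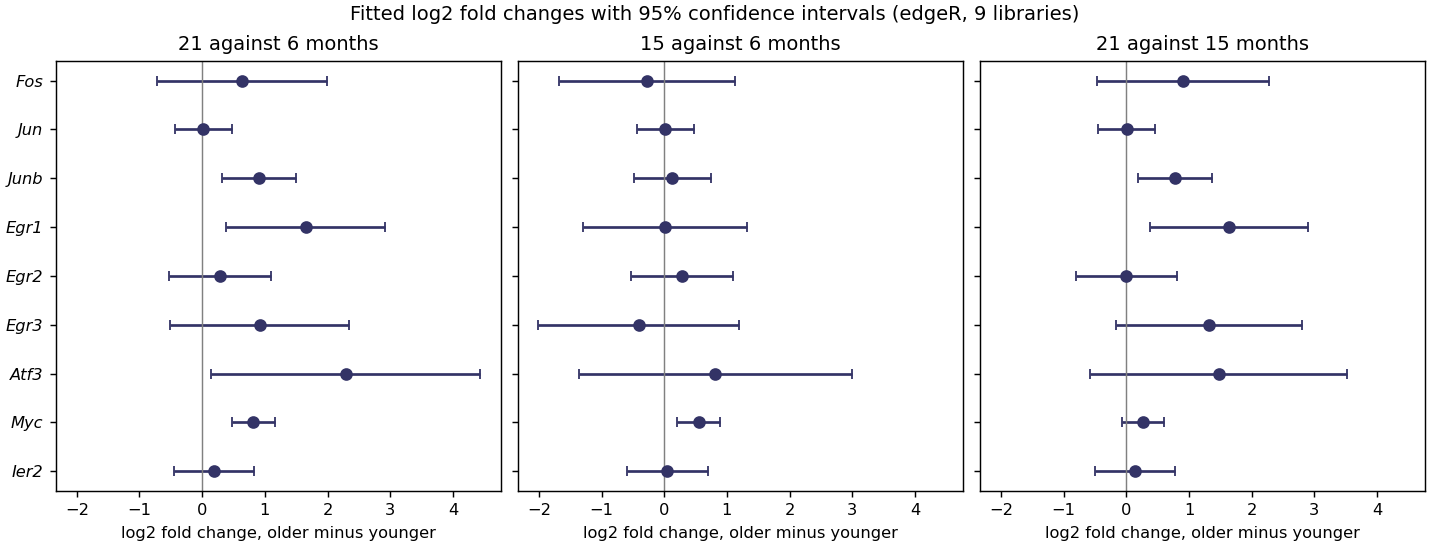
Fitted log2 fold change, older minus younger, of the 9 tested genes (rows) in the 3 comparisons, with 95% confidence intervals as bars. At 21 against 6 months the interval leaves out 0 for Junb, Egr1, Atf3 and Myc before adjustment over all genes, and Fos, Egr3 and Atf3 have the widest intervals.

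Taking the genes as a list, 9 of 9 tested genes had a log2 fold change above 0 at 21 against 6 months, as did 48.0% of all tested genes, and their median was 0.82 against -0.01 over all genes. Fosb, not tested, averaged 0.375 CPM at 6 months and 0.265 CPM at 21 months. With no filter on low counts, which keeps Fosb, the median at 21 against 6 months was 0.73. In edgeR 0 of 9 passed an adjusted p of 0.05 there, against a background of 0.0153% of tested genes, while 4 of 9 (Junb, Egr1, Atf3 and Myc) had an unadjusted p under 0.05 and all 4 were higher, against 5.14% of all genes higher and 5.5% lower. DESeq2 called 1 of 9, Myc, against 1.53% of all genes, and limma voom with quality weights called 0 against 0.452%. Myc was 1 of 9 whose groups did not overlap with the older mice higher, against 7.81% of all genes, and 0 of 9 did so with the older mice lower, against 8.31%. In the same comparison 11 of 11 slow fibre markers were higher (median 1.98, and 9 of 11 with a median of 0.41 without the 3 outlying libraries), and 10 of 10 macrophage markers were lower (median -0.31, and -0.65 without those libraries), with 0 of either list past the threshold in edgeR, DESeq2 or voom. Other markers also leaned 1 way: 10 of 11 fast fibre, 9 of 12 skeletal muscle, 5 of 5 erythrocyte and 4 of 5 adipocyte markers were lower. Higher were 8 of 9 smooth muscle and pericyte and 2 of 2 neutrophil markers. Without the 3 outlying libraries 3 of 9 smooth muscle and pericyte and 4 of 4 adipocyte markers were higher. The part of any marker list in the early gene values was not tested. The early genes were chosen with earlier results of these data known, so these counts describe the list. Without the 3 outlying libraries 6 of 9 early genes were above 0 and the median was 0.16. Without mouse 3 at 21 months the median was 0.37.

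At 15 against 6 months the median was 0.05, with 7 of 9 genes above 0 against 48.6% of all genes. Myc was the 1 gene with an unadjusted p under 0.05 in edgeR, against 10.3% of all genes in either direction (4.91% higher and 5.38% lower), and the 1 gene whose groups did not overlap, against 6.64% with the older mice higher and 7.14% with them lower. At this comparison 0 of 9 passed the adjusted threshold in edgeR, where 0.00767% of all genes did, and 0 of 9 in DESeq2, where 0.874% did. At 21 against 15 months the median was 0.78, with 9 of 9 above 0 against 49.2% of all genes. The ages did not separate for any of the 9, against 2.84% of all genes with the older mice higher and 3.3% with them lower. Junb and Egr1 had an unadjusted p under 0.05, 2 of 9 against 1.82% of all genes. After adjustment 0 of 9 passed in edgeR or in DESeq2, where 0 and 0.023% of all genes did. Over the 3 ages together 0 of 9 passed in edgeR, as did 0 of all genes, and 3 of 9 (Junb, Egr1 and Myc) had an unadjusted p under 0.05 against 8.55% of all genes. DESeq2 called 1 of 9 over the 3 ages, Myc, against 1.56% of all genes. The 3 comparisons share mice, so their values are not independent of each other.

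**Figure D4:**
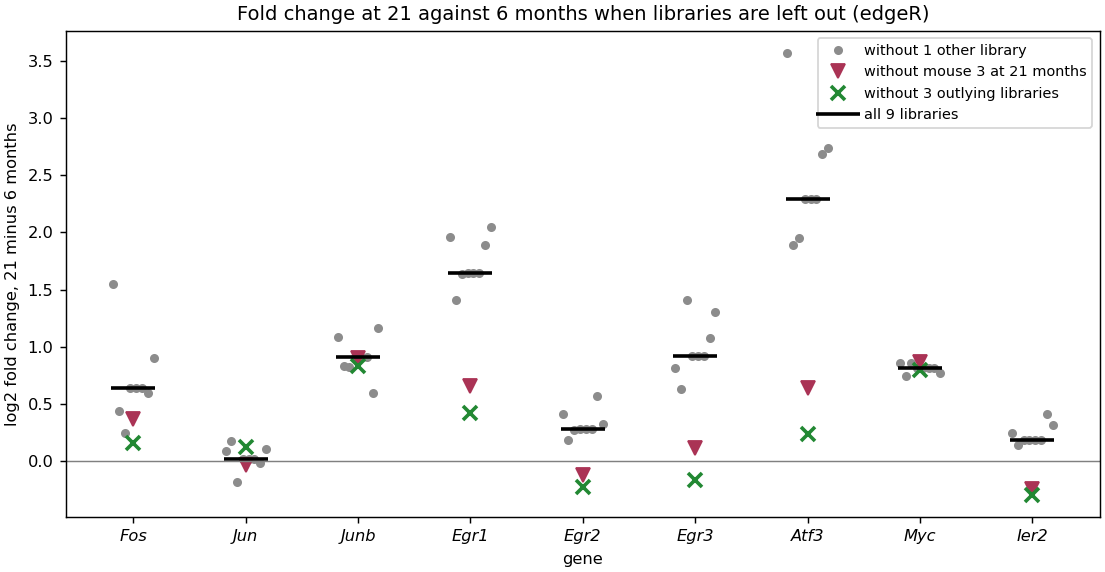
Log2 fold change of the 9 tested genes at 21 against 6 months (vertical axis) with all 9 libraries (dash), with 1 library left out (grey points, and a red triangle for mouse 3 at 21 months) and without the 3 outlying libraries (green cross). Myc stays between 0.74 and 0.87 when 1 library is left out, while Atf3 spans 0.64 to 3.56.

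Across the 9 libraries, 33 of the 36 pairs of tested genes had a positive Pearson correlation of log2(CPM + 1), and 18 exceeded 0.5. For deviations from the age means 29 of the 36 were positive. Mouse 3 at 21 months lay above the mean for 9 of 9 genes, and the shares over all gene pairs were not computed. Of the 36 pairs, 8 had an exact permutation p under 0.05 for Pearson's r and 4 for Spearman's rho, and 0 passed after Benjamini-Hochberg adjustment over the 36, with smallest adjusted p of 0.170 and 0.162. Fos and Atf3 had the largest r, 0.81 (exact permutation p = 0.00473, adjusted 0.170), with rho 0.80 (exact permutation p = 0.0138, adjusted 0.249). Their r was 0.86 without the 2 libraries farthest from the median of Fos and 0.82 for deviations from the age means. Junb and Egr1 had r = 0.75 (exact permutation p = 0.0291, adjusted 0.174) and rho = 0.87 (exact permutation p = 0.00451, adjusted 0.162). Their r was 0.75 again without the 2 libraries farthest from the median of Junb, but 0.52 for deviations from the age means. For Egr1 with Atf3, r was 0.76 (exact permutation p = 0.0239, adjusted 0.174) and rho 0.55 (exact permutation p = 0.133, adjusted 0.478). That r dropped to 0.24 without mice 1 and 3 at 21 months, so it rests on those libraries. Egr2 with Atf3 likewise went from r = 0.78 (exact permutation p = 0.0124, adjusted 0.174) and rho = 0.73 (exact permutation p = 0.0311, adjusted 0.280) to r = 0.19 without mouse 3 at 21 months and mouse 1 at 15 months. For Myc, r with the other 8 ran from 0.09 to 0.62, and from -0.39 to 0.16 for deviations from the age means. For Jun, r with the other 8 ran from -0.09 to 0.51, and from -0.13 to 0.57 for deviations from the age means.

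The genes most like a member were taken as the pair with the highest Pearson correlation of log2(CPM + 1) over the 9 libraries among 11958 genes, and these values are given as a description. For Myc they were B3gnt2, a glycosyltransferase gene (r = 0.99), and Syt9, a synaptotagmin gene (r = 0.98). From the youngest to the oldest group, B3gnt2 averaged 9.996 ± 0.742, 15.5 ± 2.08 and 18.3 ± 1.60 CPM, and Syt9 averaged 1.87 ± 0.444, 5.23 ± 2.32 and 6.89 ± 1.19 CPM (SD, n = 3). For Atf3 they were Otud1, a deubiquitinase gene (r = 0.98), and Hspb1, a small heat shock protein gene (r = 0.97). Otud1 reached 78.1 CPM and Hspb1 313 CPM in mouse 3 at 21 months, and 39.1 and 253 CPM in mouse 1 at 15 months, the next highest library for each. Fos was most like Gcnt1 (r = 0.96) and Klhl30 (r = 0.94), Jun like Mob2 (r = 0.96) and Glrx3 (r = 0.94), and Junb like Tpd52 (r = 0.96) and Trafd1 (r = 0.96). Egr1 was most like Lrrc8b (r = 0.90) and Nudt1 (r = 0.88), Egr2 like Anxa8 and P3h4 (r = 0.95 each), Egr3 like Axl (r = 0.94) and Nudt1 (r = 0.91), and Ier2 like Smim20 (r = 0.93) and Rtf1 (r = 0.90).

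Regulators and relatives of the early genes were read from 9 lists with 135 genes, of which 124 were tested. At 21 against 6 months 0 of the 124 passed the adjusted threshold in edgeR, against 0.0153% of all genes. At an unadjusted p under 0.05 there, 7 were higher and 16 lower, against 5.14% and 5.5% of all genes. At 15 against 6 months 0 passed after adjustment, and before it 2 were higher and 18 lower, against 4.91% and 5.38%. At 21 against 15 months 0 passed, and before adjustment 4 were higher and 0 lower, against 1.08% and 0.736%. DESeq2 called 8 of them at 21 against 6 months, 2 higher and 6 lower, against 1.53% of all genes, and voom called 0, against 0.452%. The 8 genes called by DESeq2 are named below for that reason, and so were chosen after their values were seen.

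**Figure D5:**
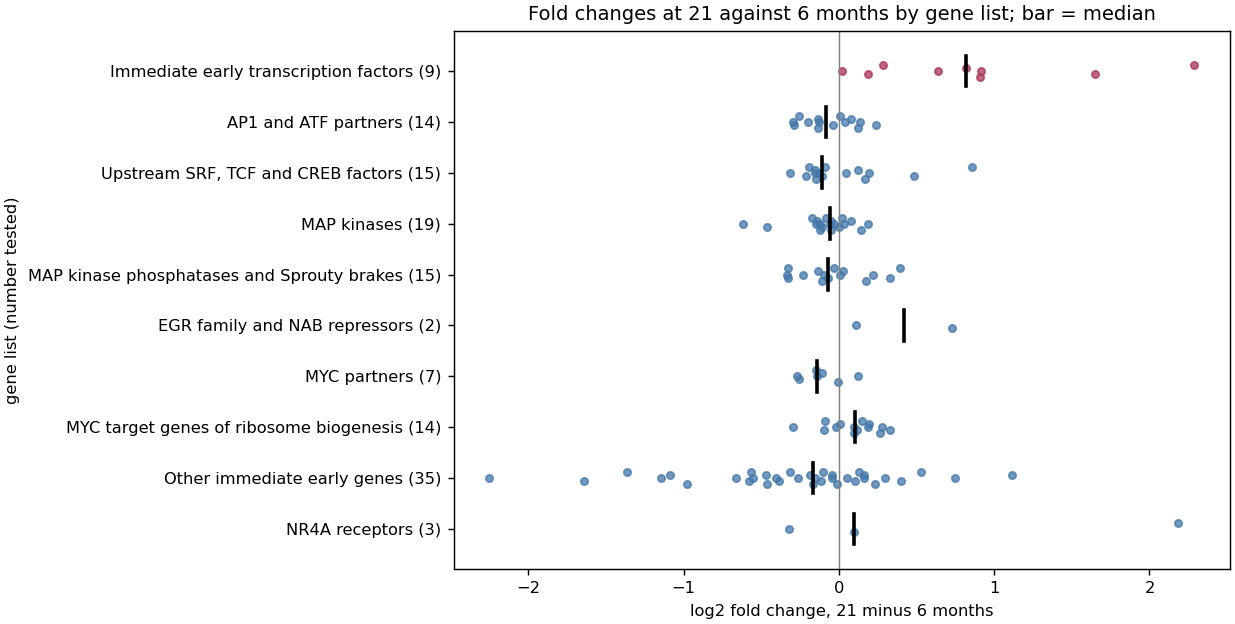
Log2 fold change at 21 against 6 months (horizontal axis) of every tested gene, 1 point each, in the 10 early transcription factors and 9 lists of relatives and regulators, with the median as a bar and the number of tested genes in brackets. The 9 tested early transcription factors lie at or above 0.02, with a median of 0.82. The medians of the lists with more than 3 tested genes lie between -0.16 and 0.11. The median is 0.10 for the 3 NR4A genes and 0.42 for the 2 tested EGR and NAB genes. Single genes of the 9 lists reach -2.25 for Cebpd and 2.18 for Nr4a3.

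Other AP-1 and ATF genes stood near 0: of 14 tested, 6 were higher and 8 lower at 21 against 6 months, with a median of -0.08 and 0 past the threshold in edgeR, DESeq2 or voom. Without the 3 outlying libraries 9 of the 14 were higher and the median was 0.05. Atf4, the factor of the amino acid response and the most abundant of them, stood at 0.01, and Maf at -0.20 (edgeR adjusted p = 0.672). Atf5, a stress-related ATF, was the 1 of 14 whose groups did not overlap, against 7.81% of all genes with the older mice higher and 8.31% with them lower. It stood at 26.3 ± 0.601 CPM at 6 months and 31.1 ± 2.51 CPM at 21 months (log2 fold change 0.24, SE 0.12, edgeR adjusted p = 0.491). Batf2, at 0.416 ± 0.133 and 0.182 ± 0.106 CPM, did not overlap either and was too low to be tested.

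Upstream factors of the SRF, TCF, CREB and MEF2 families had a median of -0.11 over 15 genes, 6 higher and 9 lower, and of -0.09 with the same 6 to 9 split in number without the 3 outlying libraries. The most abundant, Mef2c and Mef2a, muscle transcription factors, stood at -0.15 and -0.09. Crem, which encodes activators and repressors of the CREB family, stood at 10.8, 7.70 and 10.8 CPM at 6 months and at 18.2, 20.5 and 14.4 CPM at 21 months, with every mouse of 21 months above every mouse of 6 months. It was the 1 of 15 that separated with the older mice higher, against 7.81% of all genes, and 3 of 15 separated with the older mice lower, against 8.31%. These 3, named after their values were seen, were Creb1 at -0.15 (SE 0.09), Crtc3 at -0.19 (SE 0.10) and Mef2d at -0.21 (SE 0.10), with edgeR adjusted p of 0.583, 0.4996 and 0.495. The log2 fold change of Crem was 0.86 (SE 0.22, edgeR adjusted p = 0.198, DESeq2 adjusted p = 0.0247), and 0.84 without the 3 outlying libraries.

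MAP kinases and their effectors had a median of -0.06 over 19 genes, with 6 higher and 13 lower, a split that became 11 and 8 with total count scaling, under which the median of all genes moved from -0.01 to 0.07. Without the 3 outlying libraries 10 of the 19 were higher. Mapkapk2, a kinase that p38 activates, and Mapk14, a p38 kinase, the most abundant of the list, stood at 0.19 and -0.06. DESeq2 called Rps6ka1, a kinase downstream of ERK, at -0.61 (adjusted p = 0.0185), and Map2k3, which activates p38, at -0.46 (adjusted p = 0.0187). In edgeR these adjusted p-values were 0.120 and 0.162, and the log2 fold changes without the 3 outlying libraries were -0.54 and -0.48. The brakes on these kinases, phosphatases of the DUSP family with Sprouty and SPRED genes, had a median of -0.07 over 15 genes with 6 higher and 9 lower, or 8 higher with total count scaling and 6 without the 3 outlying libraries. Dusp1 and Dusp10, the most abundant, stood at -0.23 and -0.03, and 0 of the 15 passed in edgeR, DESeq2 or voom.

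Nab2, a corepressor that EGR proteins induce and bind, stood at 5.22, 6.01 and 5.83 CPM at 6 months, at 6.01, 5.92 and 5.18 CPM at 15 months and at 11.8, 6.20 and 10.3 CPM at 21 months. All 3 mice of 21 months lay above all 6 younger mice; 7.81% of all genes separated this way at 21 against 6 months and 2.84% at 21 against 15 months. Against the youngest and the middle group its log2 fold changes were 0.73 and 0.72 (SE 0.22 each), with edgeR adjusted p of 0.248 and 0.9999. Its relative Nab1 stood at 0.11 (SE 0.14), and Egr4, with 1 count in mouse 1 at 15 months and 0 in the other 8 libraries, was not tested.

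Among the partners and rivals of MYC, 1 of 7 tested genes was higher and 6 lower at 21 against 6 months, with a median of -0.14 and 0 past the threshold in edgeR, DESeq2 or voom. With total count scaling 2 of the 7 were higher, and without the 3 outlying libraries 1. Mga, a MAX-binding repressor, Mxd1 and Mxd4, both rivals of MYC for MAX, had groups that did not overlap, 3 of 7 with the older mice lower against 8.31% of all genes. Their log2 fold changes were -0.26 (SE 0.09), -0.27 (SE 0.14) and -0.14 (SE 0.10), with edgeR adjusted p of 0.342, 0.527 and 0.627. Mxi1, a further rival and among the most abundant of the list, stood at -0.01. Known MYC targets of ribosome biogenesis and growth had a median of 0.11 over 14 genes, 10 higher and 4 lower. With total count scaling 12 were higher, and 13 were higher without the 3 outlying libraries, where the median was 0.25. Odc1, the first enzyme of polyamine synthesis, stood at 0.33 (SE 0.29) and Ncl, nucleolin, at 0.10, and 0 of the 14 passed in edgeR, DESeq2 or voom.

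Of 35 tested immediate early genes outside the 10, among them other zinc finger and zipper factors, 11 were higher and 24 lower at 21 against 6 months, with a median of -0.16, and at an unadjusted p under 0.05 the counts were 2 higher and 11 lower, against 5.14% and 5.5% of all genes. With total count scaling 14 were higher and 21 lower, and without the 3 outlying libraries 8 were higher with a median of -0.34. Tob1 and Mcl1, the most abundant, stood at -0.04 and 0.10. In edgeR 0 of 35 passed, against 0.0153% of all genes, and DESeq2 called 4, all lower, against 1.53%. Klf2, a factor best known in endothelium, stood at 24.3, 25.2 and 11.9 CPM at 6 months and at 6.07, 7.28 and 10.6 CPM at 21 months (log2 fold change -1.36, SE 0.31, edgeR adjusted p = 0.152, DESeq2 adjusted p = 0.00260). Without the 3 outlying libraries Klf2 stood at -1.44. Klf10, a TGF-beta-inducible factor, stood at -1.64 (SE 0.38, edgeR adjusted p = 0.158, DESeq2 adjusted p = 0.0312) and at -0.87 without the 3 outlying libraries. Cebpd, a factor induced by glucocorticoids and inflammation, stood at -2.25 (SE 0.52, edgeR adjusted p = 0.152, DESeq2 adjusted p = 0.0243) and at -1.96 without those libraries. It had 84.0 and 68.5 CPM in mice 1 and 2 at 6 months and 13.6 CPM in mouse 3, inside the range of the older mice. Nfil3, a zipper factor linked to the clock, stood at -1.15 (SE 0.35, edgeR adjusted p = 0.265, DESeq2 adjusted p = 0.0417) and at -0.70 without the 3 outlying libraries.

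The NR4A orphan receptors, early genes themselves, split by member. Nr4a3 stood at 3.02, 1.38 and 2.15 CPM at 6 months, at 13.7, 7.71 and 6.13 CPM at 15 months and at 12.02, 7.64 and 10.1 CPM at 21 months. Every mouse of 15 and 21 months lay above every mouse of 6 months, against 6.64% of all genes separating this way at 15 and 7.81% at 21 against 6 months. Against the youngest mice the log2 fold changes were 2.18 (SE 0.35) in the oldest and 2.07 (SE 0.36) in the middle group, with edgeR adjusted p of 0.0668 and 0.194 and DESeq2 adjusted p of 9.95e-07 and 1.26e-05. Without the 3 outlying libraries these log2 fold changes were 1.93 and 1.42. Nr4a1, the abundant member at 144.9 to 180.8 CPM in the group means, stood at -0.32 (SE 0.22, edgeR adjusted p = 0.638) at 21 against 6 months, with groups that did not overlap, as in 8.31% of all genes with the older mice lower. Nr4a2 stood at 0.10 (SE 0.35).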

How the data were processed

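The authors deposited a table of estimated counts of reads (expected counts, most but not all whole) for 17314 genes in 9 libraries, made from oligo(dT)-selected RNA per the labels' protocols, and the submitters' processing notes name the build mm10. The aligner, counter, annotation and strand setting were not given in the sources used here. Columns were matched to samples by life stage and replicate number in the titles, with 0 columns of other samples. Counts were rounded, filtered with filterByExpr (minimum count 10, 13044 genes), scaled with TMM (factors 0.923 to 1.05) and tested in edgeR 4.0.16 under R 4.3.3 by quasi-likelihood, in 1 fit of the 9 libraries on age group (6 residual and 4.24 prior degrees of freedom). P-values were adjusted by Benjamini-Hochberg over all tested genes at a threshold of 0.05. DESeq2 1.42.0 and limma 3.58.1 (voom with sample quality weights) were alternatives, as were RLE and total count scaling, other filters on low counts, fits to a single pair of ages, a block for the replicate number, and leaving out single libraries or the 3 outlying ones. Exon lengths and overlaps come from GENCODE M21, gene coordinates and promoters from RefSeq (GRCm38.p6, whose chromosomes are mm10), in which 17188 of 17314 Entrez IDs were found. The design text gives 3 mice per age. Counting error adds to the spread between mice for low genes.

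The 10 genes, the lists and the alternatives were chosen with earlier results of these data known. Named genes of a list are the pair with the highest mean, those past the edgeR threshold and, in the AP-1, EGR, MYC and NR4A lists, those whose groups did not overlap at 21 against 6 months. Genes of the lists called by DESeq2, and Creb1, Crtc3 and Mef2d, are named outside this rule, after their values were seen. Marker lists describe libraries. Fast fibre, satellite cell, fibro-adipogenic progenitor, smooth muscle, erythrocyte, adipocyte and tenocyte lists had 0 genes past the edgeR threshold in the 3 age comparisons. DESeq2 called 1 smooth muscle and pericyte gene higher at 21 and at 15 against 6 months, and 1 endothelial gene higher at 21 against 6 months. The fits were also run on simulated counts with set changes at 21 months. That simulation held no outlying libraries, and its outcome is not given here.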

Additional observations from a re-analysis of the deposited data

How the results depend on the processing

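Over the 27 log2 fold changes (9 genes, 3 comparisons) the alternatives gave 479 values, of which 433 kept their direction and their side of the threshold, 45 reversed, 1 passed the threshold (Myc with DESeq2) and 0 lost a call. Values are log2 fold changes, and the cause of each difference was not tested. The number of genes past the threshold was 1 with DESeq2, both at 21 against 6 months and over the 3 ages, against 0 otherwise. Over all genes at 21 against 6 months edgeR called 2, DESeq2 200 and voom 59. The median at 21 against 6 months was 0.44 with voom, 0.16 without the 3 outlying libraries and 0.37 to 0.91 with 1 library left out, and at 21 against 15 months 0.32 to 1.03 with 1 left out.

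With voom the reversed values were -0.029 (21 against 6 months) and -0.10 (15 against 6) for Jun, -0.035 (15 against 6) for Junb, -0.28 (15 against 6) for Egr1, -0.086 (21 against 6) and -0.12 (21 against 15) for Egr2, -0.0085 (15 against 6) for Atf3, and -0.13 (21 against 6), -0.063 (15 against 6) and -0.071 (21 against 15) for Ier2. Without the 3 outlying libraries they were -0.066 (21 against 15) for Jun, -0.073 (15 against 6) for Egr1, -0.22, -0.14 and -0.085 (21 against 6, 15 against 6 and 21 against 15) for Egr2, -0.16 (21 against 6) for Egr3, -0.68 (15 against 6) for Atf3, and -0.29 (21 against 6) and -0.37 (21 against 15) for Ier2.

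With 1 library left out, values that crossed 0 ran at 21 against 6 months from -0.18 to 0.18 for Jun, -0.12 to 0.57 for Egr2 and -0.25 to 0.41 for Ier2. At 15 against 6 months they ran from -1.08 to 0.64 for Fos, -0.18 to 0.17 for Jun, -0.41 to 0.33 for Egr1, -0.038 to 0.44 for Egr2, -1.22 to 0.089 for Egr3, -0.28 to 2.09 for Atf3 and -0.14 to 0.16 for Ier2. At 21 against 15 months they ran from -0.12 to 0.16 for Jun, -0.40 to 0.32 for Egr2, -0.18 to 2.56 for Atf3 and -0.30 to 0.36 for Ier2.

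Deviations of same-numbered libraries from their age means correlated between -0.504 and 0.449. With 3 mice per age these values cannot show whether the replicate numbers pair the mice. With the replicate number as a block 0 of the 9 genes passed, and 5 of all genes did at 21 against 6 months and over the 3 ages, against 2 and 0 without it. The median at 21 against 6 months was 0.85 and Egr1 at 15 against 6 months was -0.065. Egr3 rested on 4 to 38 counts per library, and the size of difference that this depth could show was not tested.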
